A study of Arabidopsis thaliana with 3 samples.

Results

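Within a population sorted from young lateral root primordia of Arabidopsis thaliana, 60 of 322 cells held reads of at least 2 genes that mark the pericycle, the layer from which lateral roots are founded. These cells were chosen by their own reads. A plate well was kept as a cell when at least 500 genes had a read, and a kept cell became a pericycle-gene cell when it had a read of 2 or more of 7 genes: SKOR (AT3G02850), PHO1 (AT3G23430), NRT1.5 (AT1G32450, also called NPF7.3), HKT1 (AT4G10310), AT3G45680, AT5G09760 and AT4G30450. They are set against the 145 kept cells with a read of none of the 7, and the 117 cells with exactly 1 were left out of that comparison. The name pericycle-like describes this rule and not a lineage that was traced.

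The study sorted primordium cells of stages I to IV from Columbia-0 seedlings 5 days after germination, all carrying pHB53:NLS-3xmCherry, a nuclear red fluorescent reporter driven by the HB53 promoter. Protoplasts with mCherry signal were collected into plates, and each well was sequenced as a single-cell library. All pericycle-gene cells and all cells with none of the genes share this genotype, age and sort, so the sort had already chosen cells in which the HB53 promoter had been active. The labels name 3 replicates of 1 group, but nothing in the files links a well to one of them, so the wells together are 1 sample and no p-value is given. The 6 plates ran on 3 flow cells, which are used below as batches. Whether the 3 flow cells are the 3 replicates is not stated, so an equal direction on all of them may be over technical or over biological repeats.

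The pericycle surrounds the vascular cylinder of the root and lies just inside the endodermis. Its cells next to the xylem poles can re-enter division and found a lateral root. Pericycle and neighbouring stele cells also load potassium, phosphate and nitrate into the xylem for transport to the shoot. Genes of this export machinery therefore serve as markers of mature pericycle and stele, and a primordium that has begun to divide is built from descendants of such cells.

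Pericycle-gene cells made up 18.6% of kept cells (exact binomial 95% interval 14.5 to 23.3). They were found on every plate, with 16, 23 and 21 on flow cells 1, 2 and 3 and 6 to 14 on a plate, or 9.68% to 28.0% of its cells. They were also the larger libraries. Pericycle-gene cells had a median of 333219 reads (68580 to 1077544) and 4986 detected genes, and cells with none had 207668 reads (8315 to 1229439) and 3381 genes. The median share of organelle reads was 2.18% in pericycle-gene cells and 2.96% in cells with none. Since a deeper cell shows more genes of any kind, shares of cells with a read are given after thinning every cell to 115851 reads, which left 54 pericycle-gene cells and 102 cells with none. As a second comparison, each pericycle-gene cell was set against the nearest unused cell with none on the same flow cell by number of detected genes. The matched cells had a median of 4451 genes, and 49 of the 60 could be thinned. Matching narrowed the gap in gene number and did not close it. A closer match of 37 pairs within 10% of each other, added after seeing the data, had medians of 4475 genes in pericycle-gene cells and 4446 in cells with none, and its values are given where they moved a result. Intervals cover counting error only. No molecular identifiers are named in the sources, so it is not known whether PCR copies of 1 molecule were counted more than once.

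PHO1, which exports phosphate into the xylem, carried most of the rule. It had a read in 56 of the 60 pericycle-gene cells, at 2.84 to 3647 CPM, that is reads per 1e+06 reads of the cell, with a median of 171 in those cells, and in 61 of the 117 cells with exactly 1 gene. NRT1.5, which loads nitrate into the xylem, was read in 26 pericycle-gene cells, at 4.92 to 5136 CPM with a median of 586. SKOR, an outward potassium channel that releases potassium toward the xylem, was read in 24 pericycle-gene cells at 1.19 to 268 CPM with a median of 13.9, and in 12 of these it had fewer than 5 reads. SKOR detection therefore rested on few reads in many cells, while only 2 of the 26 NRT1.5 cells and 3 of the 56 PHO1 cells had so few. Among cells with exactly 1 gene, NRT1.5 was read in 7 and SKOR in 10.

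The remaining 4 genes were uneven. AT5G09760, of the invertase and pectin methylesterase inhibitor family, was read in 25 pericycle-gene cells at 9.35 to 499 CPM, with a median of 134. It was also read in 29 cells with exactly 1 gene. AT4G30450, which encodes a glycine-rich protein, was read in 13 pericycle-gene cells at 2.84 to 169 CPM, with a median of 18.6. These held 215 of its 963 reads in kept cells, and 2 cells with exactly 1 gene held the others. AT3G45680, a nitrate transporter family member in a tandem cluster of near copies, had a read in 2 pericycle-gene cells. These held 6 of its 305 reads in kept cells, and 5 cells with exactly 1 gene held the others. HKT1, which retrieves sodium from the xylem sap, was read in 1 pericycle-gene cell and in 3 cells with exactly 1 gene. Those last 2 genes thus contributed almost nothing to the choice of cells, and reads of AT3G45680 may be shared with its neighbours.

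**Figure D1:**
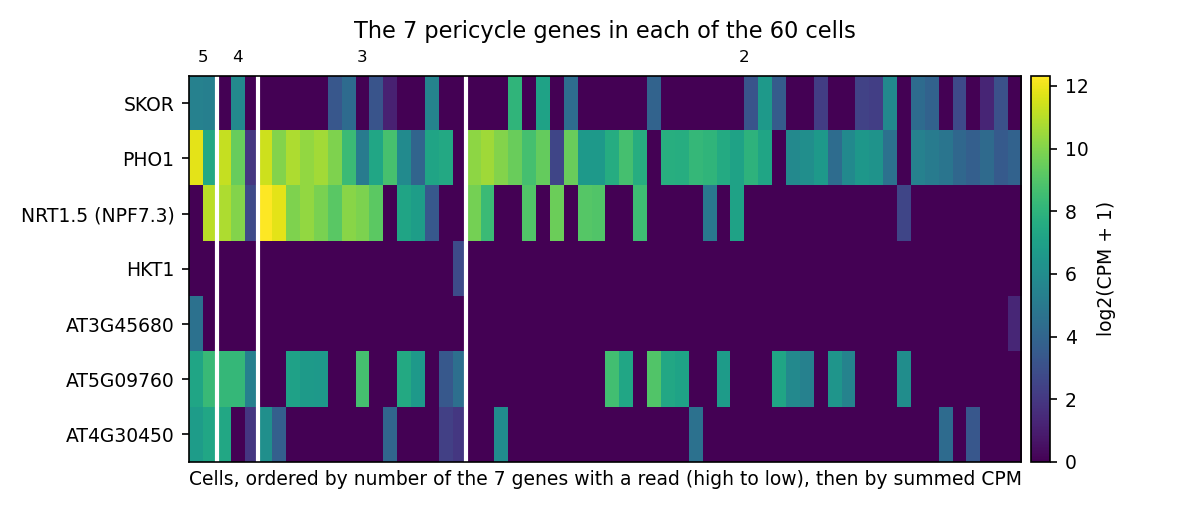
Level of the 7 chosen genes, as log2(CPM + 1) in colour, in each of the 60 pericycle-gene cells (columns), ordered from cells with 5 of the genes on the left to cells with 2 on the right and then by summed CPM. The PHO1 row is filled in 56 cells, NRT1.5 is brightest in cells with 3 or more genes, and the HKT1 and AT3G45680 rows are almost empty.

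Of the 60 cells, 40 had exactly 2 of the genes, 15 had 3, 3 had 4 and 2 had 5. The commonest pairs were SKOR with PHO1 alone in 14 cells, PHO1 with NRT1.5 alone in 9 and PHO1 with AT5G09760 alone in 9, while 6 cells held PHO1, NRT1.5 and AT5G09760 together. Over all kept cells, 25 of the 33 with NRT1.5 also had PHO1 (75.8% of NRT1.5 cells and 21.4% of PHO1 cells). SKOR and NRT1.5 met in 6 cells, which is 17.6% of the 34 SKOR cells and 18.2% of the 33 NRT1.5 cells. Over all kept cells PHO1 was read in 36.3%, SKOR in 10.6% and NRT1.5 in 10.2%, and these overlaps were not corrected for depth. Cells just inside the rule, with exactly 2 genes, had a median summed level of the 7 genes of 265.8 CPM and 4396 detected genes. Cells just outside it, with exactly 1, had 129.2 CPM and 4252 detected genes. The 20 cells with 3 or more genes had 1521 CPM and 5623 detected genes.

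Whether the 7 genes went together was asked by leaving each out of the choice of its own cells, at equal depth. NRT1.5 was read in 12 of 39 cells that had 2 or more of the other 6 genes (30.8%, 17.0 to 47.6), in 5.08% of 118 cells with none of the others and in 5.13% of gene-number-matched cells. The difference was 25.7 percentage points (10.8 to 42.8), larger than its counting error. SKOR was read in 18.9% (7.96 to 35.2) of cells with 2 or more of the others and in 5.08% of cells with none. That difference of 13.8 points (1.5 to 30.4) came down to 0.91 when a gene counted as detected from 5 reads. PHO1 was read in 13 of 16 cells with 2 or more of the others (81.3%) and in 33.3% of cells with none, but also in 62.5% of matched cells, where the difference was 18.8 points (-16.2 to 49.6). AT4G30450 was read in 4 of 44 cells with 2 or more of the others (9.09%, 2.53 to 21.7), in 1 of 113 cells with none (0.885%) and in 0 of 44 matched cells. AT5G09760 was read in 22.2% of cells with 2 or more of the others and in 15.8% of cells with none, a difference with an interval of -7.72 to 24.3 points. HKT1 and AT3G45680 had differences of -2.61 and -1.32 points, with intervals that held 0. Against cells with none, the intervals of NRT1.5, SKOR, PHO1 and AT4G30450 lay above 0 and those of AT5G09760, HKT1 and AT3G45680 did not. Against matched cells only that of NRT1.5 did, at 25.6 points (7.26 to 43.0). There SKOR stood at 13.5 points (-3.33 to 30.4) and AT4G30450 at 9.09 points (-1.29 to 21.7).

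Other exporters of the stele, whose reads took no part in the choice of cells, were also more frequent in pericycle-gene cells. Their list was itself chosen with earlier results of these data known. In a list of 15 xylem-loading and stele transporters, 10 were measured, meaning that 5 or more cells of the compared classes held 10 or more reads in total. A gene was called when its log2 fold of summed reads was at least 1 in size, its direction was the same on all 3 flow cells and in the thinned share of cells, and no single cell gave over 50% of the reads of the higher class. Of the 10 measured transporters 4 were called higher and 0 lower, where 5.92% of all 17460 measured genes were called higher and 4.96% lower. The call is a rule of size and not a test. The median log2 fold of the list was 2.44, against -0.03 over all measured genes, and it was 3.05, 3.23 and 1.02 on the 3 flow cells. At equal depth, 64.8% of pericycle-gene cells (50.6 to 77.3) had a read of 2 or more of the 15, against 23.5% of cells with none (15.7 to 33) and 22.4% of matched cells. The difference of 41.3 points (24.2 to 56.0) was 33.2 points for cells with exactly 2 of the chosen genes and 58.8 points for cells with 3 or more. It was 42.4 points (22.3 to 58.8) against matched cells and 38.0 points (10.8 to 59.7) in the 37 closer pairs, where 2 of the list were called.

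SIAR1 (AT1G44800), an amino acid exporter of the vasculature, had 7516 reads in 18 pericycle-gene cells, against 365 reads in 6 cells with none, with exact Poisson intervals of 7347 to 7688 and 328.5 to 404.4 reads. Where it was read, its level ran from 34.2 to 5620 CPM with a median of 527 in pericycle-gene cells, and from 16.5 to 869 CPM with a median of 37.1 in cells with none. The ranges overlapped, while the highest cells were pericycle-gene cells. Its log2 fold was 5.24, with 41.7% of the reads from 1 cell, and without flow cell 2 or 3 a single cell passed 50% and the call was lost.

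HMA4 (AT2G19110), a zinc pump that loads the xylem, had 2304 reads in 24 pericycle-gene cells (4.74 to 781 CPM, median 169) and 487 reads in 13 cells with none (5.22 to 587 CPM, median 72.7). Its log2 fold was 3.11 and 5.03 against matched cells. ABCG14 (AT1G31770), which sends cytokinin from root to shoot, had 2498 reads in 20 pericycle-gene cells (3.98 to 1274 CPM, median 200.7) and 367 reads in 8 cells with none (15.7 to 572 CPM, median 149). The level per positive cell overlapped for both genes, and what differed more was how many cells had a read. At equal depth, HMA4 was read in 38.9% of pericycle-gene cells (25.9 to 53.1) and 7.84% of cells with none (3.45 to 14.9), and ABCG14 in 25.9% of pericycle-gene cells (15.0 to 39.6) and 5.88% of cells with none (2.19 to 12.4). In the 40 cells with exactly 2 chosen genes, the log2 fold was 1.67 for HMA4 and 1.30 for ABCG14, and neither kept its call.

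SULTR3;5 (AT5G19600), which aids sulfate movement from root to shoot, was the least frequent of the 4, with 321 reads in 12 pericycle-gene cells and 72 reads in 5 cells with none. Its log2 fold was 3.03, and its call was lost whenever any 1 of the 3 flow cells was left out, although the fold stayed at 2.49, 2.85 and 4.00 without flow cells 1, 2 and 3. The rest of the list was mixed. HMA5 (AT1G63440), a copper pump, was read in 59.3% of pericycle-gene cells and 49% of cells with none, with a log2 fold of -0.36, and HMA2 (AT4G30110), a zinc pump related to HMA4, stood at -0.78. SLAH3 (AT5G24030), an anion channel, had 457 reads in 9 pericycle-gene cells and 81 reads in 5 cells with none but went uncalled, with 0 reads in pericycle-gene cells of flow cell 3 and 65 in cells with none there. SLAH1 (AT1G62280), another channel of that family, had 0 reads in pericycle-gene cells and 15 in cells with none. AT3G45700, from the same tandem cluster as AT3G45680, had 146 reads in pericycle-gene cells, 68.5% of them from 1 cell, and 0 in cells with none.

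**Figure D2:**
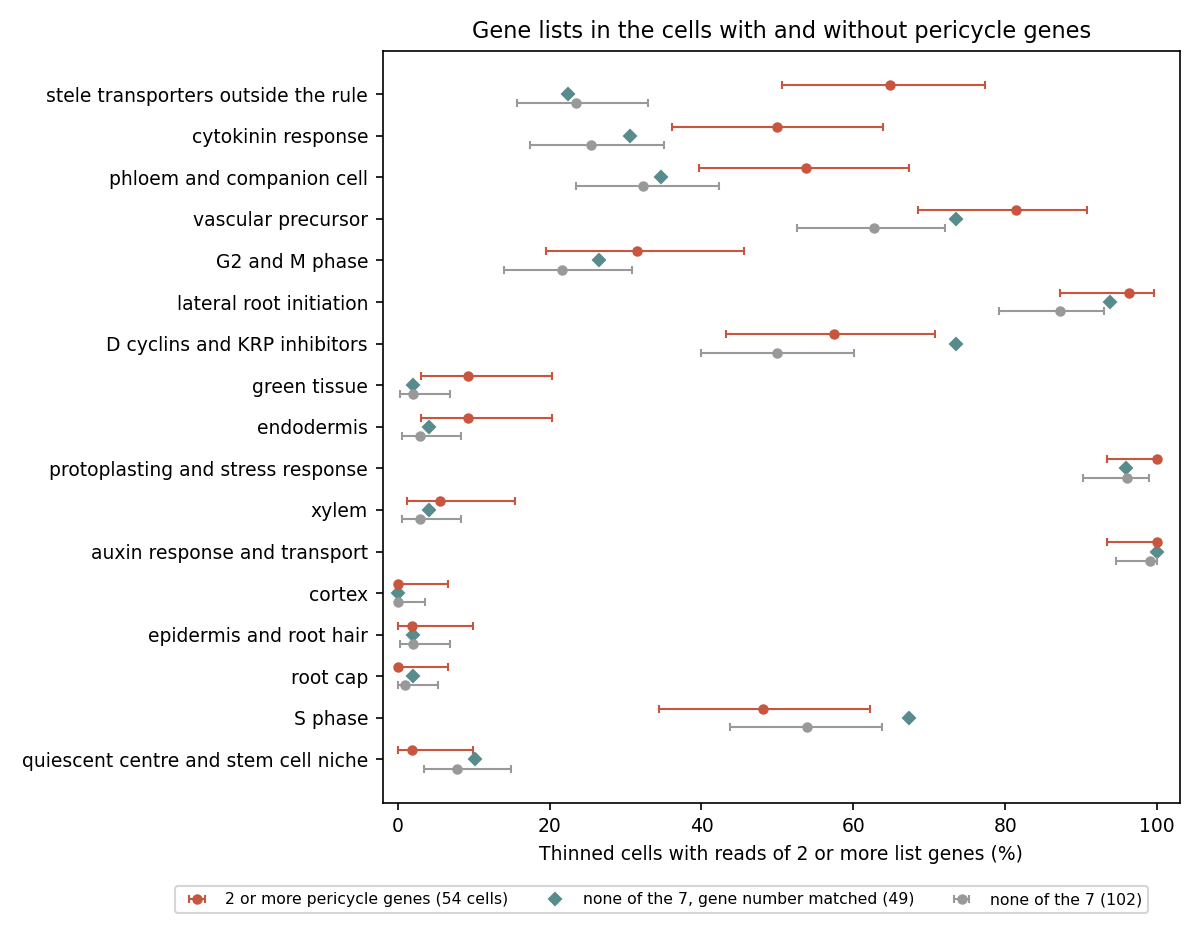
Share of cells with a read of 2 or more genes of each list (percent, after thinning to 115851 reads) in pericycle-gene cells, matched cells with none and all cells with none, with exact binomial 95% intervals for the first and last. Stele transporters stood at 64.8% in pericycle-gene cells against 23.5% in cells with none, while of the other lists only cytokinin response, at 50% and 25.5%, had intervals that did not overlap. All lists were chosen with earlier results of these data known.

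The 4 called transporters were most frequent in cells with 3 or more of the 7 genes. The call itself required a higher share with 2 or more genes than with 0, so that direction is set by it. HMA4 was read in 7.84%, 13.9%, 24.3% and 70.6% of cells with 0, 1, 2 and 3 or more of the genes (102, 101, 37 and 17 thinned cells). SIAR1 was read in 3.92%, 5.94%, 18.9% and 41.2% of these classes, and ABCG14 in 5.88%, 6.93%, 10.8% and 58.8%. For ABCG14 and SULTR3;5, which stood at 2.94%, 1.98%, 5.41% and 29.4%, nearly all of the difference lay in the cells with 3 or more genes. Other transporters of the list did not share this order, such as HMA5 with 49%, 50.5%, 67.6% and 41.2%, and BOR1 (AT2G47160), SLAH1 and NRT1.8 (AT4G21680) were at 0% in cells with 3 or more. Cells with 3 or more genes also had the largest gene number, and its part in the gradient was not tested.

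**Figure D3:**
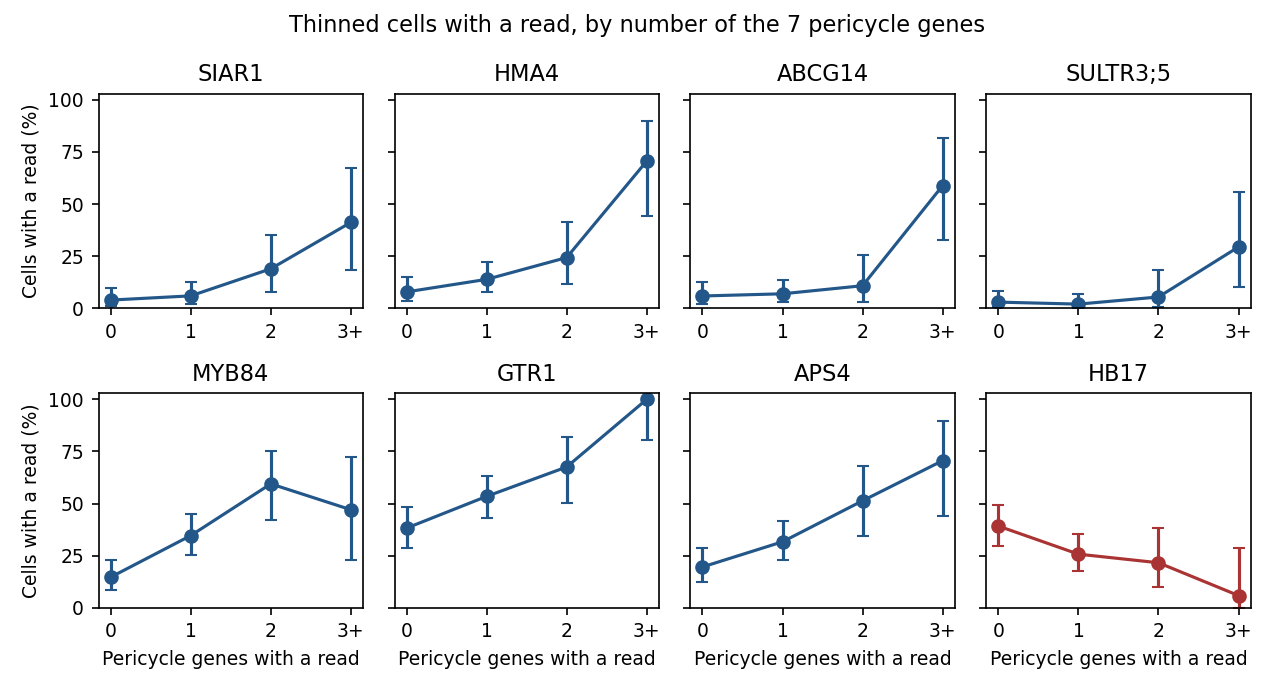
Share of thinned cells with a read (percent) of 8 genes against the number of the 7 chosen genes read in the cell (0, 1, 2, 3 or more), with exact binomial 95% intervals. HMA4 stood at 7.84% with 0 genes and 70.6% with 3 or more, and HB17 ran downward with 39.2% and 5.88%. The transporters shown were called, which required a higher share with 2 or more genes than with 0. The other genes were picked for the size of that gap, so the direction of all 8 is set by the choice.

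Across all measured genes, 1034 were called higher and 866 lower in pericycle-gene cells. Against matched cells 1232 of 16166 measured genes were called higher (7.62%) and 1024 lower (6.33%), and 652 of the higher calls were shared, which is 63.1% of the first set and 52.9% of the matched set. Of the lower calls 464 were shared (53.6% and 45.3%). In all, 77.0% of measured genes had a higher thinned share of cells in pericycle-gene cells than in cells with none, with a median gap of 5.01 percentage points, while 48.6% had a higher fold. A small gain in the share of cells is thus the common state of any gene here, and the shares below are to be read beside that gap.

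The 12 genes with the largest gain in share of cells included a MYB transcription factor, a transporter and several enzymes. They were picked for that gain over these same cells. Their intervals do not allow for this choice, so a gap between intervals is no separate evidence. MYB84 (AT3G49690), an R2R3 MYB transcription factor, had 4455 reads in 35 pericycle-gene cells (8.53 to 1917 CPM, median 170.4) and 1500 reads in 25 cells with none (4.09 to 1629 CPM, median 140.5). Its thinned share was 55.6% (41.4 to 69.1) in pericycle-gene cells, 14.7% (8.47 to 23.1) in cells with none and 12.2% in matched cells, and its log2 fold was 2.44, with 1.87 to 2.57 on single flow cells. MYB68 (AT5G65790), a close relative known from root pericycle and looked up after the values of MYB84 had been seen, was read in 25.9% of pericycle-gene cells and 6.86% of cells with none, with a log2 fold of 1.59. GTR1 (AT3G47960), which imports glucosinolates and is also named NPF2.10, was read in 77.8% of pericycle-gene cells (64.4 to 88.0) and 38.2% of cells with none (28.8 to 48.4), with a log2 fold of 1.53. It was read in all 17 thinned cells with 3 or more of the chosen genes.

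The gain was also large for 3 enzyme genes. APS4 (AT5G43780), an ATP sulfurylase at the entry of sulfate assimilation, had 4564 reads in 40 pericycle-gene cells and 1605 reads in 33 cells with none, a log2 fold of 2.38. Its thinned share was 57.4% in pericycle-gene cells and 19.6% in cells with none. RFNR2 (AT1G30510), a root ferredoxin-NADP reductase that supplies electrons to nitrite reduction, was read in 66.7% of pericycle-gene cells and 25.5% of cells with none, with a log2 fold of 2.07. ACLA-3 (AT1G09430), a subunit of ATP citrate lyase, stood at 61.1% and 21.6% in the same classes, with a log2 fold of 1.08. No list of metabolic genes was examined, so these 3 stand as single genes.

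The other 7 of the 12 gained 38.1 to 41.5 points. They were the DOF transcription factor AT4G00940 (log2 fold 1.69), the protein kinase gene SIK1 (AT1G69220, 1.05), EXO70B1 (AT5G58430, 1.43), which encodes a subunit of the exocyst that tethers vesicles at the plasma membrane, the chloroplast protease gene SPPA (AT1G73990, 1.14), AT2G34930 (1.39), AT4G34600 (1.40) and AT5G03380 (1.24). EXO70B1 was the most widely read of them, in 81.5% of pericycle-gene cells and 43.1% of cells with none. Of the 12, APS4, GTR1, EXO70B1 and AT4G34600 kept their call in all 15 alternative settings. Leaving out 1 flow cell ended the call of SIK1 (0.47 without flow cell 1), SPPA (0.33 without flow cell 2), AT2G34930 (just under 1 without flow cell 2) and ACLA-3 (0.80 without flow cell 3). Against matched cells the calls of SIK1 (0.77), ACLA-3 (0.62) and AT5G03380 (0.71) were lost.

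The 12 genes with the largest loss in share of cells included HB17, AGO4, HTA11 and FIP37. These too were picked for that loss over the same cells, and their intervals do not allow for the choice. HB17 (AT2G01430), a homeodomain-leucine zipper factor of class II, had 158 reads in 20 pericycle-gene cells (1.01 to 64.3 CPM, median 4.90) and 1243 reads in 66 cells with none (0.81 to 1055 CPM, median 7.59). Its thinned share was 16.7% (7.92 to 29.3) in pericycle-gene cells, 39.2% (29.7 to 49.4) in cells with none and 42.9% in matched cells, and its log2 fold was -2.10. AGO4 (AT2G27040), which guides DNA methylation with small RNAs, was read in 18.5% of pericycle-gene cells (9.25 to 31.4) and 37.3% of cells with none (27.9 to 47.4), with a log2 fold of -2.15. The histone H2A.Z gene HTA11 (AT3G54560) stood at 20.4% and 41.2%, with a log2 fold of -1.37. FIP37 (AT3G54170), part of the complex that writes N6-methyladenosine on mRNA, stood at 11.1% and 28.4%, with -1.93.

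AT1G52930 and AT4G34555 were also among these 12. AT1G52930, which encodes a Brix domain protein of ribosome biogenesis, had 81 reads in 9 pericycle-gene cells (1.39 to 59.5 CPM, median 29.9) and 2500 reads in 39 cells with none (1.78 to 1571 CPM, median 114). Its log2 fold of -4.08 was the largest of the 12 in size. AT4G34555, a gene for ribosomal protein S25, was read in 18.5% of pericycle-gene cells and 35.3% of cells with none, with a log2 fold of -2.15. The neighbouring peroxidase genes AT4G08780 and Prx37 (AT4G08770) stood at -1.02 and -1.37 and may share reads. Their folds were -0.29 and -0.52 against matched cells, where the calls were lost, as were those of AT5G54300 (-0.68) and AT3G07910 (-0.93). ACR8 (AT1G12420, -1.54), the xylogen gene XYP1 (AT5G64080, -1.30), AT5G54300 (-1.23) and AT3G07910 (-1.79) complete the 12. Leaving out 1 flow cell ended the call of XYP1 (-0.93) and AT3G07910 (-0.94) without the first, AT5G54300 (-0.74) and AT4G08780 (-0.82) without the second, and AT4G08780 (-0.96) without the third. HB17, AGO4, AT1G52930 and AT4G34555 kept their call in all 15 alternative settings.

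**Figure D4:**
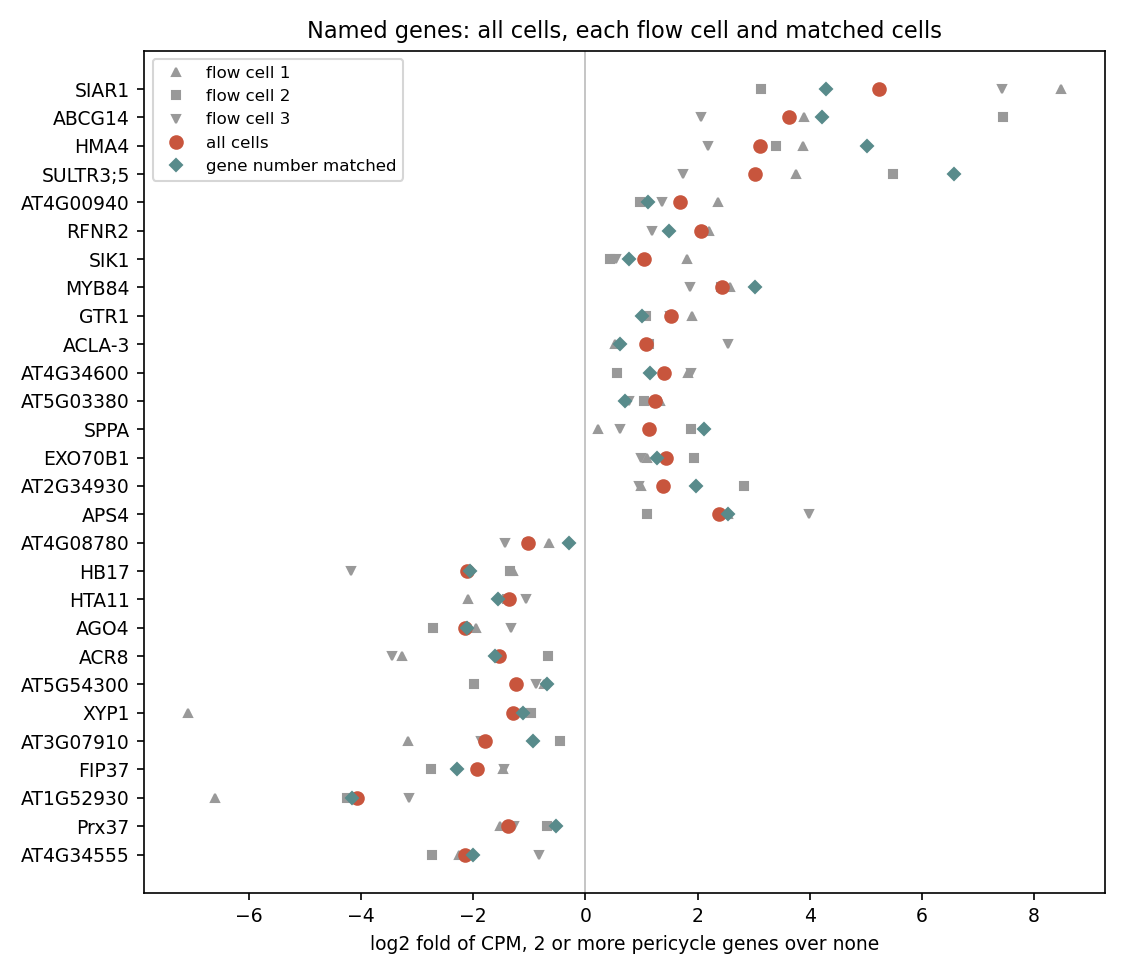
Log2 fold of CPM in pericycle-gene cells over cells with none, for the 4 called transporters and the 12 genes with the largest gain and loss in share of cells, pooled (circles), on each flow cell (grey) and against matched cells (diamonds). The genes were chosen for the same direction on all 3 flow cells, and the 24 with the largest gain or loss also for the same direction against matched cells, so agreement in side is set by the choice. Several points farthest out rest on few reads in 1 class, such as SULTR3;5 against matched cells, which held 1 read.

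Markers of neighbouring root tissues had few calls, beside 5.92% of all measured genes called higher and 4.96% lower, and these counts are near that background. Of 14 measured vascular precursor genes 0 were called higher and 1 lower, LOG3 (AT2G37210), which activates cytokinin, at -1.05, a call lost without flow cell 1 (-1.03) or 3 (-0.97), and the list median was -0.22. TMO6 (AT5G60200), a DOF factor of the vascular precursors, was read in 68.5% of pericycle-gene cells and 52.9% of cells with none, and in 65.3% of matched cells. Of 11 xylem genes 2 were measured and 0 were called. The xylem switch gene VND7 (AT1G71930) had reads in 1 pericycle-gene cell. Of 16 endodermis genes 4 were measured and 0 were called. CASP1 (AT2G36100), which builds the Casparian strip, had 0 reads in pericycle-gene cells, and 9.26% of thinned pericycle-gene cells against 2.94% of cells with none had a read of 2 or more endodermis genes. Of cortex, epidermis and root cap genes, 2 each were measured. The only call among these 6 was the root cap cellulase gene CEL5 (AT1G22880) at -2.32, and it was lost without flow cell 1 (-1.54).

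Phloem genes were read in a larger share of pericycle-gene cells than of cells with none, but not with a higher median fold. A read of 2 or more of the 16 phloem and companion cell genes was found in 53.7% of pericycle-gene cells (39.6 to 67.4), 32.4% of cells with none (23.4 to 42.3) and 34.7% of matched cells (21.7 to 49.6). Among 13 measured members 2 were called higher and 1 lower, beside 5.92% and 4.96% of all measured genes. Called higher was CVP2 (AT1G05470), a phosphoinositide phosphatase of vein and protophloem formation, at 1.27. It had 2070 reads in 21 pericycle-gene cells and 1575 reads in 19 cells with none. The other was the DOF gene AT5G02460 (1.24), whose sign turned when the rule asked for 3 genes (-4.57). AT5G57130, an SMXL family gene, was called lower at -1.38. APL (AT1G79430), the phloem identity factor, had 0 reads in pericycle-gene cells and 270 reads in 6 cells with none. SUC2 (AT1G22710), the sucrose transporter of companion cells, was read in 8 pericycle-gene cells and 10 cells with none, with 322 and 2554 reads in these classes and no call. The list median was -0.97 over summed reads, 0.95 against matched cells and -0.83, 1.67 and -1.73 on the 3 flow cells, so the pooled fold and the share differed in sign. The call of CVP2 was lost without flow cell 2 (0.87), and that of AT5G02460 without any 1 of the 3 (2.32, 0.67 and 1.12). The part that phloem-gene cells have in the transporter values was not tested.

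Of 25 measured lateral root initiation genes 1 was called higher, ARF19 (AT1G19220), and 0 lower, near the 5.92% and 4.96% of all measured genes, and the median was -0.27. ARF19, an auxin response factor needed for lateral root formation, had 1493 reads in 27 pericycle-gene cells (4.47 to 817 CPM, median 69.9) and 977 reads in 19 cells with none (3.23 to 969 CPM, median 173.7). The positive cells overlapped in level, and the share of cells differed, at 44.4% (30.9 to 58.6) of pericycle-gene cells, 10.8% (5.51 to 18.5) of cells with none and 14.3% of matched cells. Its log2 fold of 1.48 came to 0.98 without flow cell 1, which ended the call. LBD16 (AT2G42430), which marks founder cells that are about to divide, was read in 40.7% of pericycle-gene cells and 32.4% of cells with none, with a log2 fold of 0.34. IAA28 (AT5G25890), an auxin repressor of founder cell specification, was read in 70.4% of pericycle-gene cells and 51.0% of cells with none, with -0.27. LBD33 (AT5G06080), a partner of LBD18, was read in 20.4% of pericycle-gene cells and 6.86% of cells with none without a call. HB53 (AT5G66700), whose promoter drove the sorted reporter, had 48 reads in 6 pericycle-gene cells and 335 reads in 12 cells with none. It was not called, and it was read in 0 of the 17 thinned cells with 3 or more chosen genes, which allows a share of up to 19.5% by the exact interval.

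Of 27 measured auxin genes 2 were called higher and 1 lower, near the background of 5.92% and 4.96%, with a list median of -0.04. DFL1 (AT5G54510), a GH3 enzyme that conjugates auxin to amino acids, had 3532 reads in 24 pericycle-gene cells and 1233 reads in 23 cells with none, a log2 fold of 2.39. LAX3 (AT1G77690), an auxin importer of the tissue around the primordium, had 2374 reads in 14 pericycle-gene cells and 591 reads in 15 cells with none, at 2.88. Of 15 alternative settings, 6 ended the call of LAX3, with a lowest fold of 0.44, and 2 that of DFL1, with a lowest fold of 0.73. GH3.3 (AT2G23170), another conjugating enzyme, stood at -3.90, with reads in 3 pericycle-gene cells and 10 cells with none, and its call was lost without flow cell 1 (-1.25). Of 9 measured cytokinin response genes 0 were called in either direction. A read of 2 or more genes of that list was found in 50% of pericycle-gene cells (36.1 to 63.9), 25.5% of cells with none (17.4 to 35.1) and 30.6% of matched cells, and the difference was -0.11 points among 37 matched pairs within 10% of gene number. Stem cell niche genes were called lower in 1 of 5 measured cases, WOX5 (AT3G11260) at -1.20, a call lost without flow cell 1 at a fold of -1.35, and PLT2 (AT1G51190), a root meristem master regulator, had 0 reads in pericycle-gene cells and 79 reads in 5 cells with none. Of 5 measured green tissue genes 0 were called.

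Of 21 measured G2 and M phase genes 2 were called higher and 4 lower, where all measured genes had 5.92% and 4.96%, with a list median of -2.42. The median was 0.13, -1.97 and -3.34 on the 3 flow cells, so the first did not share the direction. The B-type kinase gene CDKB2;1 (AT1G76540) stood at -2.36 and its relative CDKB2;2 (AT1G20930) at 2.19. AUR1 (AT4G32830) and AUR2 (AT2G25880), Aurora kinases of the spindle, stood at -2.42 and -2.48. HIK (AT1G18370), a kinesin of cell plate formation, had 0 reads in pericycle-gene cells and 338 reads in 10 cells with none. Several of these calls were lost without 1 flow cell, mostly at folds as large. They were AUR2 (-1.88) and CYCB1;1 (4.83) without the first, AUR1 (-0.87), AUR2 (-6.82) and HIK (-5.42) without the second, and HIK (-3.41) and CYCB1;1 (4.73) without the third. The cyclin gene CYCB1;1 (AT4G37490) was the other gene called higher, with 279 reads in 8 pericycle-gene cells and 29 reads in 6 cells with none. Despite the list median, 31.5% of pericycle-gene cells, 21.6% of cells with none and 26.5% of matched cells had a read of 2 or more of these genes. The difference of 9.91 points over all cells was -2.91 points (-27.4 to 21.5) in the 37 closer pairs. Of 15 measured S phase genes 1 was called, the replication helicase gene MCM2 (AT1G44900) at -2.09, whose call was lost without flow cell 2 (-1.55). Of 15 measured D cyclin and inhibitor genes 1 was called, CYCD3;3 (AT3G50070) at -2.43.

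Genes that respond to protoplasting and stress were read in more pericycle-gene cells, which is given here beside the results above because its part in them was not tested. Of 15 measured genes 5 were called higher and 0 lower, beside 5.92% and 4.96% of all measured genes, and the list median was 0.97. All 15 had a higher thinned share of cells, as did 77.0% of all measured genes. ERF2 (AT5G47220, 1.05), ERF-1 (AT4G17500, 1.31), JAZ7 (AT2G34600, 2.61), JAZ8 (AT1G30135, 3.54) and WRKY46 (AT2G46400, 1.00) made up the 5. JAZ proteins repress jasmonate responses, and the others are transcription factors of defence and stress. All 5 calls were lost without flow cell 1, at 0.65 for ERF2, 0.97 for ERF-1, 1.14 for JAZ7, 2.49 for JAZ8 and 0.88 for WRKY46. Those of ERF2 (1.37), ERF-1 (1.41) and JAZ7 (2.52) were also lost without flow cell 2, and WRKY46 stood at 0.73 against matched cells. The sum of the list ran from 142 to 22907 CPM in pericycle-gene cells with a median of 3798, and from 0 to 12116 CPM in cells with none with a median of 2958, so the classes overlapped over almost the whole range.

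The genes whose level most resembled the summed level of the 7 across the 322 kept cells did so weakly. Among 11679 genes read in at least 10% of cells, the highest Spearman correlation of log2(CPM + 1) was 0.35 for SNAP29 (AT5G07880), a membrane fusion adaptor, followed by 0.34 for HAM4 (AT4G36710), a GRAS factor of the HAIRY MERISTEM family, and 0.33 for AT4G30460, a glycine-rich neighbour of the chosen gene AT4G30450, whose reads may be partly shared with it. The summed level itself correlated with gene number at 0.23, and the points share depth. HAM4 had 2266 reads in 25 pericycle-gene cells (2.11 to 1086 CPM, median 117.7) and 74 reads in 6 cells with none (3.15 to 203 CPM, median 15.9). It was read in 4.90%, 10.9%, 24.3% and 70.6% of thinned cells with 0, 1, 2 and 3 or more chosen genes. HAM4 was picked for its correlation with the 7 genes over these same cells, so the direction of both differences is set by that choice. Its call was lost without flow cell 2, at a log2 fold of 4.91. The tenth gene in this order was APS4 at 0.29. ADT5 (AT5G22630), an arogenate dehydratase of phenylalanine synthesis, and AT1G60680 stood at 0.31 each, and the other 4 of the 10 were AT2G25450, AT2G32150, the noncoding gene AT1G10682 and ACLA-3.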

How the data were processed

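Whole-number read counts for 32833 genes in 573 wells were deposited by the authors as raw counts. Reads were mapped to TAIR10, per the submitters' processing notes. For the aligner, the counting rule and the strand setting and any molecular identifiers, nothing is stated in the sources used. Libraries were read as 150 bp single-end reads, per the labels' protocols. A text file deposited by the authors gave each well's flow cell and plate. Symbols came from a RefSeq table (32548 identifiers matched).

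Wells with at least 500 genes with a read were kept. Reads were summed per class and converted to CPM with a trimmed mean of M values (30% of M, 5% of A). A sum of 0 was set to 3 reads over the class. Cells were thinned once (seed 1) to the 20th percentile of reads, leaving out 65 cells. Intervals are exact at 95%. Named genes were the 12 called genes with the largest difference in thinned share in each direction that kept their direction against matched cells, list members, HB53 and the 10 genes most like the summed level. The members and all 17 other lists were chosen with earlier results of these data known. With 1 sample no test was run, so edgeR was not used. No doublet caller was run, as each library is a plate well. No 2 wells were identical. Software was Python 3.11.15, numpy 2.4.6, pandas 2.3.3 and scipy 1.17.1. Scripts were tested on simulated data, in which genes with no set difference also passed the call rule, so a call is a description of these cells. Alternatives are listed in the closing section.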

Additional observations from a re-analysis of the deposited data

How the results depend on the processing

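No paired analysis was possible because the wells carry no replicate number. The share of pericycle-gene cells (18.6%) was 6.21% with at least 3 genes, 14.3% with detection from 5 reads, 7.14% without PHO1 and 12.4% for exactly 2 genes. Genes called higher (1034) numbered 632 for exactly 2 genes, and genes called lower (866) numbered 1522 with at least 3 genes, 1472 with detection from 5 reads, 1368 without flow cell 2 and 1640 without PHO1. Transporters called higher (4) numbered 2 without flow cell 2, 2 in 37 matched pairs within 10% of gene number and 1 for exactly 2 genes. The difference in transporter share between pericycle-gene cells and cells with none (41.3 points) was 58.8 with at least 3 genes. In the close pairs, list differences were -17.2 points for the stem cell niche (-5.99 over all cells) and -25.5 for S phase (-5.77), and turned sign to -2.80 for lateral root initiation (9.04), -0.11 for cytokinin response (24.5) and -22.4 for D cyclins (7.41, and -16.1 in all matched pairs). Differences also turned sign in the close pairs to -2.91 points for G2 and M phase (9.91), -0.32 for endodermis (6.32) and -3.45 for xylem (2.61). Over all cells only the cytokinin interval of these lay off 0. Left-out differences moved to 0.91 points for SKOR with detection from 5 reads and to 18.8 for PHO1 in matched cells. Log2 folds that turned sign in the close pairs were AT4G08780 at 0.57, AT5G54300 at 0.42, AT5G57130 at 0.32 and CEL5 at 0.57. AT5G02460 turned to -4.57 with at least 3 genes and -5.03 without PHO1, and JAZ7 to -0.38 with each cell weighted alike. The cause was not tested. Of 885 fold values of named genes under alternatives, 711 kept direction and call and 167 lost the call. The close pairs, the rule without PHO1 and the exactly-2 class were chosen after seeing the data. Among pericycle-gene cells with a read of the gene, SKOR had under 5 reads in 12 of 24, AT3G45680 in 1 of 2 and HKT1 in 1 of 1. The part of depth in this was not tested.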

Other observations

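The 251 wells below 500 detected genes gave a view of background reads. A read of 1 of the 7 genes was found in 3 of them (1.20%, exact interval 0.247 to 3.45) and of 2 or more in 0 of them, which allows a share of up to 1.46% by the exact interval. These wells had a median of 3922 reads, far below the pericycle-gene cells, so the limit holds at that depth only.

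Pericycle-gene cells could be divided by NRT1.5 and SKOR, a division chosen after the values were seen and given without a test. Of the 60 cells, 20 had NRT1.5 without SKOR, 18 SKOR without NRT1.5, 6 both and 16 neither. HMA4 was read in 55.0% of cells with NRT1.5 alone (31.5 to 76.9), against 27.8% of cells with SKOR alone (9.69 to 53.5). ABCG14 was read in 45.0% of cells with NRT1.5 alone and 22.2% of cells with SKOR alone, and SIAR1 in 40% and 16.7% of these. MYB84 ran the other way, in 45.0% of cells with NRT1.5 alone (23.1 to 68.5) and 72.2% of cells with SKOR alone (46.5 to 90.3), and so did IAA28, in 60% and 77.8%. All of these intervals overlapped, the cells were not thinned, and 13 of the 20 cells with NRT1.5 alone came from flow cell 3, against 6 of the 18 with SKOR alone.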
